A study of Rattus norvegicus with 4 samples.

Results

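The genes described here are those of protein folding in the endoplasmic reticulum (ER) and of the stress responses that watch over it, with 3 cytosolic chaperones beside them. The set was chosen by gene symbol: 40 symbols were named, and 39 of them were among the 30708 genes that the files list, Derl2 being the exception. Of these 39 genes, 38 had a mean of at least 1 RPKM (reads scaled to gene length and to the reads of the library), as did 11025 genes in all. They were measured by poly(A) RNA-Seq in unmodified S16 cells, an immortalized rat Schwann cell line grown without neurons and used as a model of the myelinating Schwann cell. No genotype or treatment differed between the groups. One population was at passage 9, the parent of the study's enhancer-deletion clones, and the other was an older population at passage 39. Each passage was thus 1 population, sequenced as 2 libraries labelled technical replicates, so that no p-value can be given for any difference between passages. The read totals recovered from the values lay between 34246093 and 41382234 per library. The Schwann cell label was borne out by its markers, since all 6 of Sox10, S100b, Pmp22, Erbb3, Ngfr and Cnp were at 31.8 RPKM or more in every library. Of the macrophage markers, Ptprc and Itgam were listed at 0 in all libraries, and so were Cdh5 and Kdr of the endothelial list and Tyr of the melanocyte list. A mean of 1 RPKM was reached by 1 of 5 macrophage, 0 of 4 endothelial, 1 of 4 melanocyte, 2 of 5 neuron and 3 of 5 fibroblast markers, with summed levels per library of 1.48 to 1.62, 0.307 to 0.418, 8.27 to 9.19, 50.4 to 65.3 and 3432 to 3933 RPKM.

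Secreted and membrane proteins fold in the ER with the help of lumenal chaperones, of enzymes that form disulfide bonds, and of lectins that bind their sugar chains. Proteins that fail to fold are pulled back into the cytosol and degraded, a route known as ER-associated degradation. When folding lags, 3 sensors in the ER membrane, encoded by Ern1, Eif2ak3 and Atf6, start the unfolded protein response, which raises chaperone and degradation genes through ATF6 and the spliced form of XBP1. The Eif2ak3 product PERK also phosphorylates eIF2alpha, as other kinases do when amino acids or haem are short, and the translation of ATF4 that follows drives the integrated stress response. Schwann cells make large amounts of membrane and matrix protein, and misfolded proteins are known to engage these pathways in the nerve.

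Some promoters of these genes hold known response elements, which are shown because the pathways described above are known to act through them. Windows from 250 bases before to 50 bases after the annotated start were taken from RefSeq (rat build GRCr8) for 30 of the 40 named genes. Of the other 10 genes, 1 window was not analysed here, and 9 genes had no entry, namely Manf, Pdia3, Pdia6, Ero1l, Fkbp10, Ern1, Atf6, Derl1 and Hsp90aa1. The motifs searched on both strands were the ER stress response element ERSE (CCAAT and CCACG with 9 bases between them) and its shorter form ERSE-II (ATTGG and CCACG with 1 base between them), which ATF6 and XBP1 are known to use. The others were the core of the C/EBP-ATF response element CARE (TGATGNAA), which ATF4 and CHOP are known to use, and the heat shock element HSE (GAA, TTC and GAA, each 2 bases apart). None of the 17 matches found in 13 of the genes overlapped another. ERSE was present in the windows of 6 of the 30 genes, or 20%, against 21 of 33468 rat promoter windows, or 0.0627%. A gene counted if any of its windows matched, so these shares are not in the same unit. The elements are known from the pathways that define the set, so an excess of them is not a test. Of these 6 genes, 5 encode lumenal chaperones or co-chaperones, and the other is Xbp1 itself. Their 7 matches are shown on the strand of the gene, each with 10 bases on either side. Capitals mark the motif, which begins with CGTGG where the match is on the opposite strand.
Hspa5, chr3:38452963-38453001, plus strand: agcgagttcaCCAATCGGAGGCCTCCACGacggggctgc
Hsp90b1, chr7:23012441-23012479, minus strand: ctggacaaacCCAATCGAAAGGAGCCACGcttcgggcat
Hsp90b1, chr7:23012337-23012375, minus strand: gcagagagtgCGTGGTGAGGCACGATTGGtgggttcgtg
Calr, chr19:40213125-40213163, plus strand: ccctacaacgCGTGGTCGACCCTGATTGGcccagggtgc
Dnajc3, chr15:102432524-102432562, plus strand: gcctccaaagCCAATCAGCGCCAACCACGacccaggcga
Creld2, chr7:121789229-121789267, plus strand: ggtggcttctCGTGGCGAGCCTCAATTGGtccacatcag
Xbp1, chr14:84604548-84604586, plus strand: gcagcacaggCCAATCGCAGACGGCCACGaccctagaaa

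ERSE-II was found in Hyou1, Dnajb11 and Herpud1, which was 10% of the 30 genes, against 0.0508% of all windows. CARE was found in Trib3, Chac1 and Herpud1, again 10%, against 3.98% of all windows, so that these letters are common. Herpud1 was the only one of the 30 genes with a match of both an ERSE type and CARE. HSE was found in Hspa8 and Serpinh1, or 6.67% of the 30 genes, against 0.798% of all windows. The matches of ERSE-II, CARE and HSE were as follows, with capitals again marking the motif. That of Dnajb11, which reaches the annotated start, is not shown.
Hyou1, ERSE-II, chr8:53602684-53602714, plus strand: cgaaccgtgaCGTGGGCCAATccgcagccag
Hyou1, ERSE-II, chr8:53602784-53602814, plus strand: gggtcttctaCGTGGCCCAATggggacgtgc
Herpud1, ERSE-II, chr19:10614811-10614841, minus strand: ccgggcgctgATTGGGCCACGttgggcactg
Herpud1, CARE, chr19:10614874-10614901, minus strand: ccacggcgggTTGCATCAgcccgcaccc
Trib3, CARE, chr3:161275537-161275564, minus strand: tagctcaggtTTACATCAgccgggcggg
Chac1, CARE, chr3:126795954-126795981, plus strand: ttctccgccgTTGCATCActcctgctag
Serpinh1, HSE, chr1:163062989-163063021, minus strand: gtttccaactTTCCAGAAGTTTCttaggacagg
Hspa8, HSE, chr8:50080291-50080323, plus strand: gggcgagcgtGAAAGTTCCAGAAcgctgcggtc
Hspa8, HSE, chr8:50080449-50080481, plus strand: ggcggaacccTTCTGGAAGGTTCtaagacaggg
A match is a description of these letters and not of binding, and an absent match says only that the letters were not in the window.

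**Figure D1:**
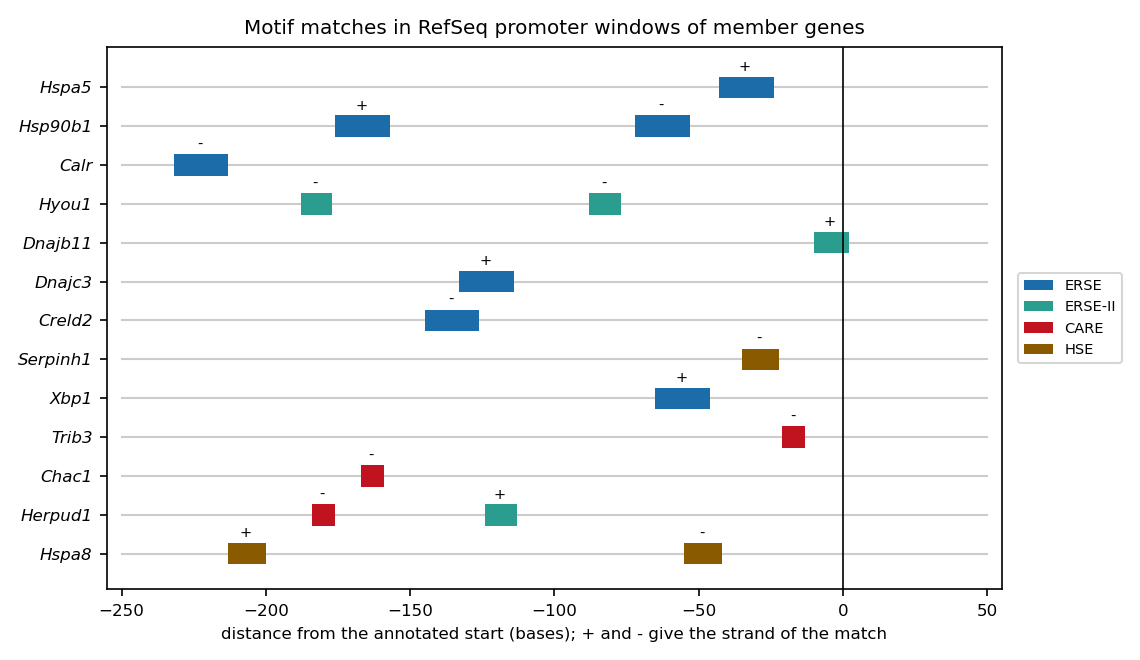
Positions of the 17 motif matches (coloured boxes) in the promoter windows of 13 genes, with the distance from the annotated start in bases on the x axis and the strand of each match above its box. The 7 ERSE matches lie in 6 genes, 5 of which encode lumenal chaperones or co-chaperones.

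How the 4 libraries related to each other has to be given before the values. Libraries with the same technical replicate number were closer to each other than the libraries labelled as replicates of the same population. Differences were taken on the log2(RPKM + 1) scale, which understates those of low genes. Over the 38 members, the log2 differences between the technical replicates had an SD of 0.309 at passage 9 and 0.317 at passage 39. Across passages it was smaller, at 0.0511 between the libraries numbered 1 and 0.0416 between those numbered 2. Exact 95% counting intervals of the members did not overlap between the technical replicates for 30 of 38 genes at passage 9 and 31 of 38 at passage 39, where the share over all genes was 61.4% and 59.9%. Between passages they did not overlap for Canx alone in the first replicates (0.952% of all genes) and for Canx, Serpinh1 and Sel1l in the second (2.01%). The labels were used as given, and whether passage and replicate number are exchanged in them was not tested. Every SD over populations and every comparison of passages below depends on these labels. The values are given by both splits, passage and technical replicate number.

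Between the passages, ER chaperone and stress genes were at nearly the same level. None of the 38 members differed by 1.5-fold or more between passage 9 and passage 39, against 3 of all 11025 genes, or 0.0272%. The median log2 difference over the members was -0.00021, and that over all genes was -0.0021. Aside from Trib3, every member with at least 1 RPKM was within 4.23% of its passage 9 mean, or within 0.054 on the log2 scale. Trib3 averaged 8.03 RPKM at passage 9 against 6.95 RPKM at passage 39, a log2 difference of -0.18. Its libraries overlapped between the passages, because the technical replicates were much further apart. Both libraries of passage 39 lay above both of passage 9 for Canx and Eif2ak3, and below them for Dnajc3 and Sesn2. These 4 of 38 genes stand against 6.21% of all genes without overlap in either direction (3.1% higher and 3.11% lower at passage 39). With 1 population per passage, these differences have no replicate check.

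Grouped by technical replicate number instead, the second libraries held more of these transcripts than the first. The summed RPKM of the 39 genes was 6514 and 6511 in the first technical replicates of passages 9 and 39, and 8201 and 8166 in the second. Of the 38 members, 30 (78.9%) were higher in both second libraries than in both first ones, against 57.2% of all genes, and 3 (7.89%) were lower in both, against 30.5%. The median log2 difference of second minus first was 0.25 over the members, with 0.23 at passage 9 and 0.25 at passage 39, and 0.10 over all genes. Past 1.5-fold were 4 members, all of them higher in the second libraries, against 6.02% of all genes in either direction (2.88% higher and 3.15% lower). Fewer cells of one state and less RNA per cell cannot be told apart in such bulk values. Rescaling each library to a common sum of 1000000 also raised the values against the fixed minimum and pseudocount. It therefore covered more genes, 12406 in all and 39 members. The median of all genes went from 0.10 to -0.032 and that of the members to 0.098. The members thus stayed 0.13 above all genes. Under that scaling Sdf2l1, Creld2, Eif2ak3, Sesn2 and Herpud1 changed sign.

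**Figure D2:**
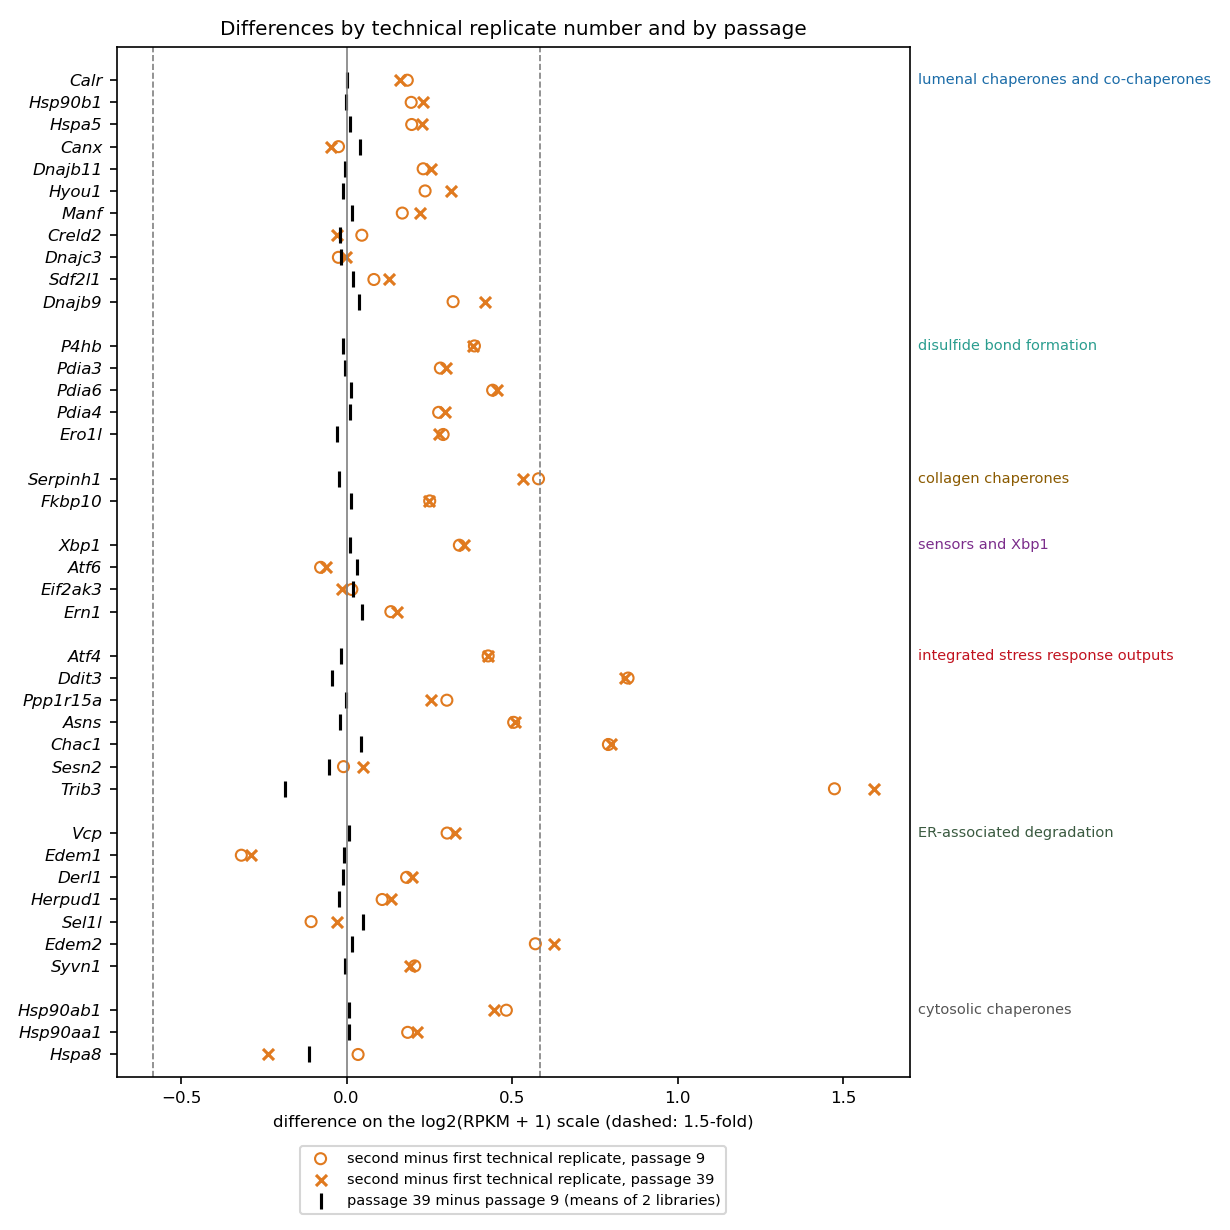
Differences of each of the 39 genes on the log2(RPKM + 1) scale, between technical replicates within passage 9 (circles) and passage 39 (crosses) and between the passage means (black bars), with dashed lines at 1.5-fold. The differences between passages sit near 0, while those between technical replicate numbers reach 1.59 for Trib3 at passage 39.

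Gene length moved with this split. Over the members, Spearman's rho between the length recovered from the values and the log2 difference of second minus first was -0.46 (38 genes, which share the same 4 libraries and are not independent replicates). Genes were therefore also compared with the median of genes of similar length, in 20 bins whose medians ran from 0.28 for the shortest to -0.22 for the longest genes. Relative to these, the median over the members was 0.11, and 28 of 38 members were above 0, against 49.9% of all genes. Past 1.5-fold were then 2 members, Trib3 and Chac1, against 1.23% of all genes higher to that extent. The length recovered for Ddit3, at 373 bases, is the smallest that gives whole reads and may be short by a factor common to all libraries, so its value relative to length is uncertain.

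**Figure D3:**
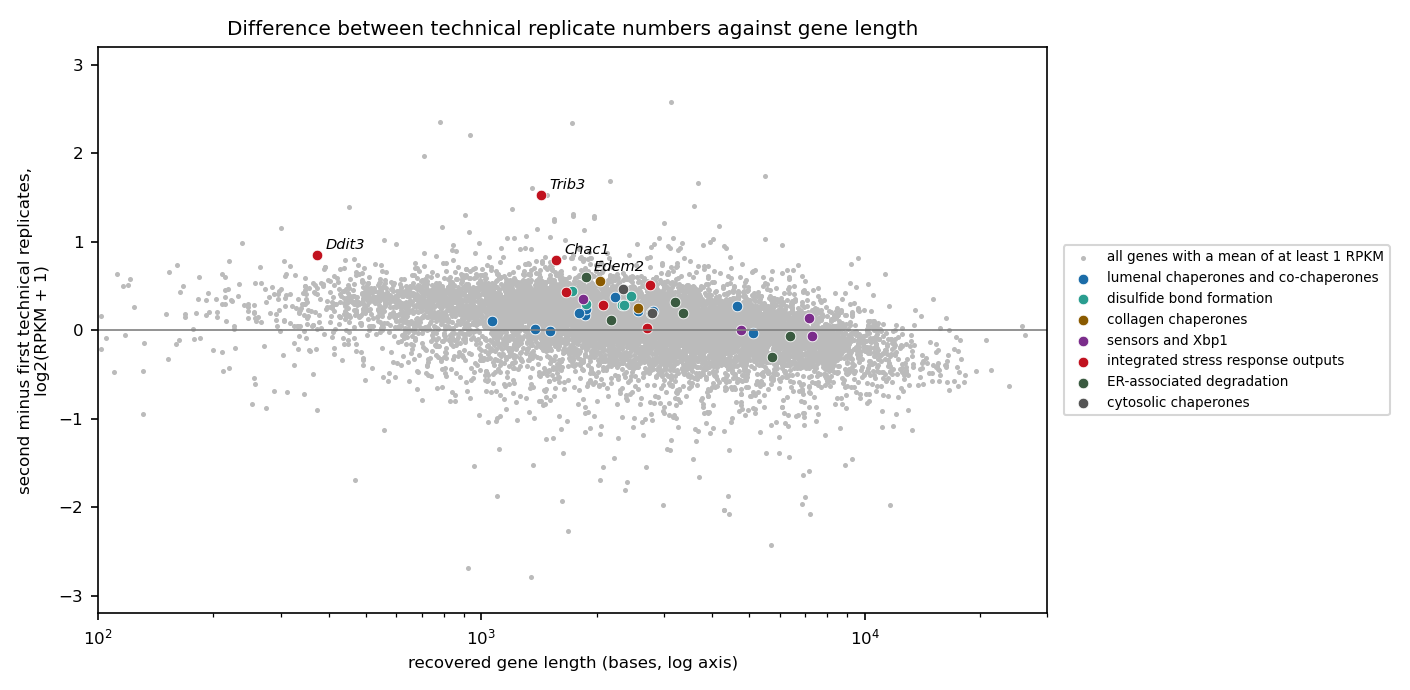
Recovered gene length in bases (log axis) against the log2 difference of second minus first technical replicates, for all genes averaging 1 RPKM or more (grey; 25 genes lie outside the axes) and for the 38 members by role (colours). Trib3, Chac1, Ddit3 and Edem2 are the members past 1.5-fold, and the grey cloud falls with length.

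The lumenal chaperones were among the most abundant transcripts of S16 cells, and they lay only slightly apart between the technical replicate numbers. Calr encodes calreticulin, a lectin chaperone, and was at 914 ± 0.0796 RPKM (SD, n = 2 populations), rank 23 of all listed genes. The passage 9 pair of libraries, first and second technical replicate in turn, read 856 and 972 RPKM, and the passage 39 pair 863 and 965 RPKM. Hsp90b1 encodes GRP94, the HSP90 of the ER, and was at 786 ± 0.231 RPKM, rank 27, with 733 and 840 RPKM in the passage 9 pair and 723 and 849 RPKM in the passage 39 pair. Hspa5 encodes BiP, the HSP70 of the ER that also holds the sensors inactive, and was at 466 ± 2.43 RPKM, rank 58. It read 433 and 496 RPKM in the passage 9 pair and 431 and 505 RPKM in the passage 39 pair. These 3 genes all carry ERSE in their promoters. The median log2 difference of second minus first was 0.19 over the 6 genes with ERSE. It was 0.30 over 16 genes with a window but none of the 4 motifs, and a link to the motif was not tested. For Calr, Hsp90b1 and Hspa5 both second libraries were above both first ones, as for 57.2% of all genes. Their log2 differences were 0.17, 0.21 and 0.21, although that of Calr turned to -0.015 relative to genes of similar length. Canx, which encodes the membrane-bound partner of calreticulin, did not share this order. It was at 244 and 239 RPKM in the passage 9 pair and 252 and 244 RPKM in the passage 39 pair, where the groups overlapped.

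The co-chaperones and accessory factors spanned a wider range of levels. Dnajb11, Hyou1, Manf, Creld2, Dnajc3 and Sdf2l1 had means between 42.3 and 104.8 RPKM. Hyou1, a nucleotide exchange factor for BiP that carries ERSE-II, was at 61.5 and 72.6 RPKM in the passage 9 pair and 59.2 and 73.8 RPKM in the passage 39 pair. Dnajb9, a J-protein that returns IRE1 to its inactive state, was the lowest of the group at 5.37 ± 0.116 RPKM. Its second libraries, at 5.98 and 6.37 RPKM, were above its first ones, at 4.59 and 4.52 RPKM, and its log2 difference of 0.37 was the highest of the 11 genes. Creld2 and Dnajc3, both with ERSE, overlapped between the numbers, with log2 differences of 0.0087 and -0.013. In all, 8 of the 11 chaperones and co-chaperones were higher in both second libraries and 0 were lower in both, against 57.2% and 30.5% of all genes. Their median log2 difference was 0.19, and it was 0.0078 once length was taken into account.

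**Figure D4:**
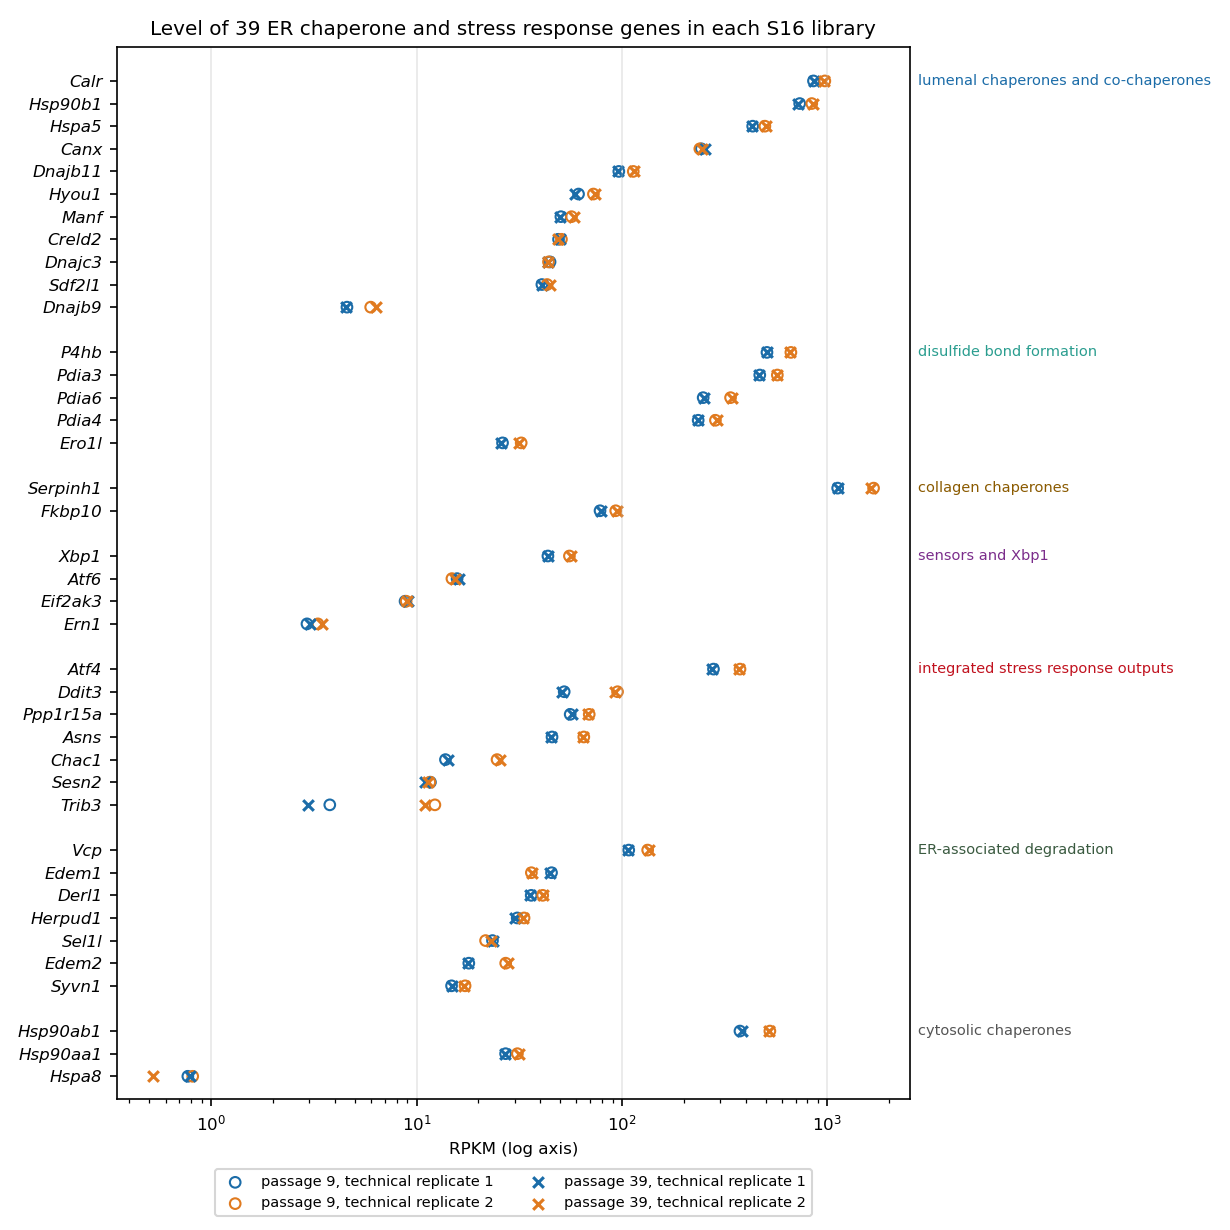
RPKM (log axis) of the 39 listed genes in each of the 4 libraries, grouped by role and ordered by mean level, with blue for first and orange for second technical replicates, circles for passage 9 and crosses for passage 39. Markers of one colour lie close together for most genes, from Serpinh1 at 1389 RPKM on average to Hspa8 at 0.724 RPKM.

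The 5 enzymes of disulfide bond formation were all higher in both second libraries, as were 57.2% of all genes. P4hb, which encodes protein disulfide isomerase and also serves as a subunit of prolyl 4-hydroxylase, was at 584 ± 2.84 RPKM. It read 508 and 664 RPKM in the passage 9 pair and 506 and 659 RPKM in the passage 39 pair. Pdia6 was at 249 and 338 RPKM in the passage 9 pair and 250 and 342 RPKM in the passage 39 pair, and its log2 difference of 0.45 was the largest of the 5 genes. Pdia3, which encodes ERp57, the isomerase that works with the lectin chaperones, had a mean of 519 RPKM, and Pdia4 one of 261 RPKM. Both had a log2 difference of 0.29. Ero1l, the oxidase that recharges the isomerases, was far lower, with 26.2 and 32.3 RPKM in the passage 9 pair and 25.8 and 31.5 RPKM in the passage 39 pair. The median log2 difference of the 5 genes was 0.29, and 0.14 relative to genes of similar length.

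Serpinh1 was the member with the highest level. It encodes HSP47, a chaperone specific to procollagen, and was at 1389 ± 16.4 RPKM (SD, n = 2 populations), rank 13 of all listed genes. Its first technical replicates were at 1123 and 1126 RPKM and its second at 1679 and 1629 RPKM, for passages 9 and 39. The second libraries were thus 1.47-fold above the first on the RPKM scale, and the log2 difference of 0.56 fell just short of 1.5-fold. Fkbp10, a prolyl isomerase that also acts on collagen, was at 78.2 and 93.3 RPKM in the passage 9 pair and 79.0 and 94.1 RPKM in the passage 39 pair, a log2 difference of 0.25. Col1a1, which encodes a collagen chain and is on the fibroblast list used here, was at 3344 and 3877 RPKM in the passage 9 pair and 3359 and 3771 RPKM in the passage 39 pair. Of the other markers on that list, Pdgfra was also higher in the second libraries, at 5.89 and 6.16 against 4.73 and 4.62 RPKM. Dcn and Lum were under 0.5 RPKM in every library, and Col3a1 was lower in the second libraries, at 50.3 and 48.5 against 82.8 and 81.9 RPKM. The summed level of the 5 fibroblast markers was 3432 and 3445 RPKM in the first libraries and 3933 and 3826 RPKM in the second, and their part in the result was not tested.

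The sensors themselves were low, and they did not share an order between the technical replicate numbers. Ern1, which encodes the kinase and nuclease IRE1, was at 3.19 ± 0.0932 RPKM, with 2.93 and 3.31 RPKM in the passage 9 pair and 3.03 and 3.47 RPKM in the passage 39 pair. Both second libraries were above both first ones, with a log2 difference of 0.14, and of 0.24 relative to genes of similar length. Eif2ak3, which encodes PERK, lay between 8.80 and 9.04 RPKM in the 4 libraries. Atf6 was at 15.8 and 14.9 RPKM in the passage 9 pair and 16.03 and 15.3 RPKM in the passage 39 pair, a log2 difference of -0.07 that turned to 0.032 relative to genes of similar length. The sensor transcripts were thus far below those of Calr, Hsp90b1, Hspa5 and Canx on the same per-length scale. Dnajb9, at 5.37 RPKM, was nonetheless below Eif2ak3 and Atf6, whose means were 8.92 and 15.5 RPKM. The cytosolic Hspa8, listed at 0.724 RPKM, was below each sensor. Xbp1, the target that IRE1 splices, was higher than the sensors at 49.8 ± 0.285 RPKM, with 43.6 and 55.5 RPKM in the passage 9 pair and 43.7 and 56.2 RPKM in the passage 39 pair. Its log2 difference of 0.35 was the largest of these 4 genes, and the values do not tell the spliced from the unspliced form.

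Of the 7 outputs of the integrated stress response, 3 were past 1.5-fold higher in the second libraries, against 2.88% of all genes. They were 3 of the 4 members past 1.5-fold. Trib3, a pseudokinase induced by ATF4 and CHOP, was at 3.78 RPKM in the first and 12.3 RPKM in the second technical replicate of passage 9, with 224 and 617 reads. At passage 39 it was at 2.96 and 10.9 RPKM, with 145 and 643 reads. The second libraries were 3.44-fold above the first in RPKM, with within-passage ratios of 3.25 (95% counting interval 2.78 to 3.80) and 3.70 (3.08 to 4.46). On the log2 scale the difference was 1.53, and 1.31 relative to genes of similar length. Ddit3, which encodes the transcription factor CHOP, was at 52.3 and 95.2 RPKM in the passage 9 pair and 51.0 and 92.1 RPKM in the passage 39 pair, a ratio of 1.81 and a log2 difference of 0.85. Relative to genes of similar length that was 0.56 and short of 1.5-fold, on a length that is uncertain. Chac1 encodes a glutathione-degrading enzyme and carries CARE, as do Trib3 and Herpud1, while Ddit3 had no match. The log2 difference of Herpud1 was only 0.12. Chac1 was at 13.8 and 24.7 RPKM in the passage 9 pair and 14.3 and 25.5 RPKM in the passage 39 pair. Its ratio was 1.79 and its log2 difference 0.79, or 0.59 relative to genes of similar length. For Trib3, Ddit3 and Chac1 the second libraries lay well above the first in both passages. No counting interval of a second library reached that of a first one.

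The other outputs were split. Atf4, the transcription factor at the centre of this response, was abundant at 326 ± 2.53 RPKM and was higher in the second libraries, at 376 and 372 RPKM, than in the first, at 279 and 276 RPKM. Its log2 difference was 0.43 in each passage. Asns, the asparagine synthetase that ATF4 is known to induce, was at 45.7 and 65.2 RPKM in the passage 9 pair and 45.0 and 64.4 RPKM in the passage 39 pair, a log2 difference of 0.51. Ppp1r15a, which encodes GADD34, the phosphatase subunit that ends the response, had a smaller log2 difference of 0.28, with a mean of 62.6 RPKM. Sesn2, an ATF4 and p53 target that restrains mTORC1, did not follow, at 11.7 and 11.6 RPKM in the passage 9 pair and 11.0 and 11.4 RPKM in the passage 39 pair. In all, 6 of the 7 outputs were higher in both second libraries, against 57.2% of all genes. Their median log2 difference was 0.51, and 0.39 against genes of like length, the highest of the 7 roles on both measures.

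**Figure D5:**
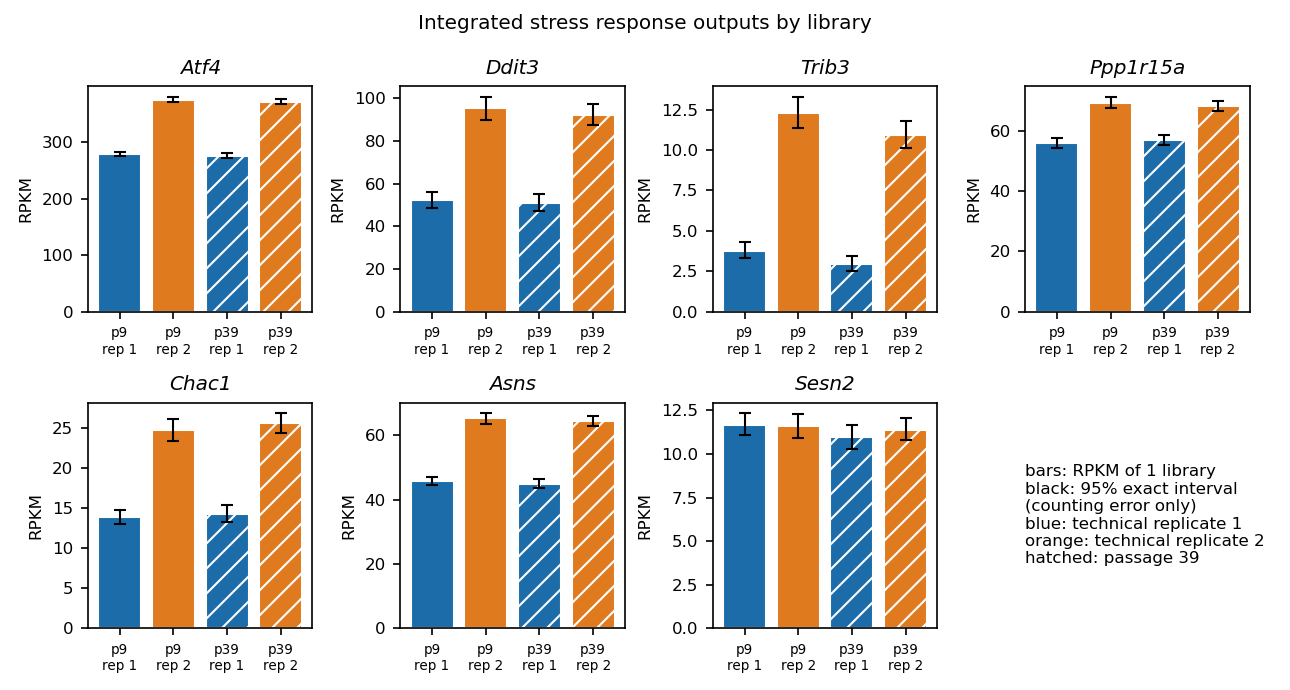
RPKM of the 7 integrated stress response outputs in each library (bars, from 0), with exact 95% counting intervals (black), technical replicate 1 in blue and 2 in orange, and passage 39 hatched. In 6 panels both orange bars stand above both blue ones, and Sesn2 is level at 11.0 to 11.7 RPKM.

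The genes of ER-associated degradation were divided between the numbers much as all genes were. Edem2, which trims mannose from misfolded glycoproteins, was the remaining member past 1.5-fold, at 18.0 and 27.2 RPKM in the passage 9 pair and 17.7 and 27.9 RPKM in the passage 39 pair. Its ratio was 1.54 and its log2 difference 0.60, but with the libraries of passage 9 alone it was 0.57 and short of 1.5-fold, as it was under both rescalings of the libraries, and relative to genes of similar length it was 0.41. Its relative Edem1 lay the other way, at 45.4 and 36.2 RPKM in the passage 9 pair and 44.7 and 36.4 RPKM in the passage 39 pair, a log2 difference of -0.30. That was the lowest of all 38 members, and at -0.25 it was also the lowest relative to length. Syvn1, the ubiquitin ligase HRD1, was at 14.8 and 17.2 RPKM in the passage 9 pair, and its partner Sel1l had a mean of 23.0 RPKM. Their log2 differences were 0.20 and -0.07. Derl1, a channel component, and Herpud1, which organizes the ligase complex, had means of 38.5 and 31.9 RPKM and log2 differences of 0.19 and 0.12, the latter turning to -0.031 relative to genes of similar length. Vcp, the ATPase that pulls substrates out of the membrane, was the highest of the 7 listed genes at 120.9 ± 0.353 RPKM, with a log2 difference of 0.32. Of the 7 genes, 5 were higher and 2 lower in both second libraries, near the 57.2% and 30.5% of all genes.

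Among the cytosolic chaperones, Hsp90ab1, the constitutive HSP90, was at 375 and 525 RPKM in the passage 9 pair and 383 and 522 RPKM in the passage 39 pair, a log2 difference of 0.46. The inducible Hsp90aa1 was at 29.1 ± 0.117 RPKM, with a log2 difference of 0.20. Hspa8, the constitutive HSP70 and in most cells an abundant protein, was listed at only 0.771 and 0.814 RPKM in the passage 9 pair and 0.792 and 0.521 RPKM in the passage 39 pair, on 67, 60, 57 and 45 reads. The methods of the paper keep uniquely mapped reads only, which would leave out reads shared between Hspa8 and near-identical copies. Whether the deposited values follow that step was not tested, so Hspa8 is of uncertain level. It was the 1 listed member under 1 RPKM and is in none of the counts over 38 genes.

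Genes of the same pathways outside the member set were examined by the same measures. Of the targets of the integrated stress response, 6 of 18 with at least 1 RPKM were past 1.5-fold higher in the second libraries and 0 lower, against the 2.88% and 3.15% given above. Atf5, a transcription factor translated like ATF4, was at 66.2 and 157.0 RPKM in the passage 9 pair and 63.5 and 155.0 RPKM in the passage 39 pair, a log2 difference of 1.25. Pycr1, of proline synthesis, was at 11.2 and 23.2 RPKM in the passage 9 pair and 9.95 and 24.7 RPKM in the passage 39 pair, a log2 difference of 1.11. Cebpb, Psph, Slc7a11 and Stc2 had log2 differences of 0.83, 0.82, 0.75 and 0.69. Slc7a11 was at 0.658 and 0.820 RPKM in the first libraries and 1.85 and 2.00 RPKM in the second. It reached the minimum mean of 1 RPKM only through its second libraries, so its place among the 6 genes is not independent of its difference. Atf3, which is also on this list and is often induced beside Ddit3, was level, with a lowest library of 19.3 RPKM and a log2 difference of 0.023. The median of the 18 genes was 0.37, and 0.28 relative to genes of similar length.

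Of the other lists, 2 of 20 heat shock genes were past 1.5-fold higher and 0 lower. The shares of all genes, 2.88% higher and 3.15% lower, are the background to each count past 1.5-fold in this paragraph. With lists this short a single gene is near them. These were the small heat shock genes Hspb1, at 78.3 and 182 RPKM in the passage 9 pair and 79.4 and 174 RPKM in the passage 39 pair, and Cryab, with a log2 difference of 0.70. Dnajb1, a classical target of heat shock factor, was nearly level at 46.5 to 48.5 RPKM. All 20 heat shock genes were higher in both second libraries, against 57.2% of all genes. Their median log2 difference was 0.32, and 0.14 relative to genes of similar length. Those of the 38 members were 0.25 and 0.11, so the shift was not particular to the ER genes. Of 27 further ER folding factors, Fkbp11 alone was past 1.5-fold, with a log2 difference of 0.82. Of 14 translocon and signal peptidase genes 0 were past 1.5-fold, and the largest differences were 0.57 for Sec61b, 0.54 for Ssr2 and 0.47 for Ssr4. Of 21 further degradation genes 0 were past 1.5-fold, and Ubxn6, Vimp and Ufd1l had the largest differences at 0.37, 0.36 and 0.33. Of 15 sensors and transmembrane factors, Creb3l1, a relative of Atf6 with known roles in collagen secretion, was higher in the second libraries by a log2 difference of 0.82. Its paralog Creb3l2 was lower by -0.67, at 40.4 and 25.2 RPKM in the passage 9 pair and 39.6 and 24.1 RPKM in the passage 39 pair.

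The Schwann cell markers moved with the same split. Of the 6 markers, 4 were lower and 2 higher in both second libraries, against 30.5% and 57.2% of all genes, with a median log2 difference of -0.25. Their summed level was 2161 and 2146 RPKM in the first libraries and 2072 and 2048 RPKM in the second. S100b had the largest difference, at -1.39, with 85.7 and 86.6 RPKM in the first libraries and 31.8 and 32.8 RPKM in the second. The part of the Schwann cell markers in the differences above was not tested.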

How the data were processed

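Poly(A) RNA of 2 unmodified S16 populations, each with 2 libraries labelled technical replicates, had been sequenced by the authors as 50 bp single-end reads from TruSeq libraries. Reads were checked with FastQC, aligned to rat rn5 with STAR keeping unique alignments, and counted per gene with HTSeq with default settings but without strand, under which reads that overlap more than 1 gene on either strand are left uncounted. The authors deposited RPKM values per gene symbol. The gene lengths behind them are not given in the sources used here, and the totals recovered below are larger than the read number per cell line that the methods state. Versions are not given either.

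Totals and whole reads were recovered from the RPKM values as the smallest whole numbers that give all 4 of them (tolerance 0.01 reads), for all but 1 of the 18114 genes above 0 in at least 2 libraries. The step was tested on simulated data of second against first technical replicates (18113 genes), where it returned 4 of 4 totals and, of the genes it solved, exact counts for 96.7%. There, 100 of 100 genes changed 2-fold were called, as were 0 of 10819 unchanged genes. The changed genes were all at 5 RPKM or more, so these calls do not cover genes between 1 and 5 RPKM. The simulated noise was counting noise alone, without the trend with gene length seen in the data. Exact Clopper-Pearson 95% intervals cover counting error only.

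RPKM were averaged over the 2 libraries of a side and compared as log2(RPKM + 1) over 11025 genes averaging 1 RPKM or more. A gene was called at 1.5-fold. No test was run, because each passage is 1 population. Length-relative values subtract the median of 1 of 20 length bins. Alternatives were 2 scalings, a pseudocount of 0.1 RPKM, other minimums, gene length, the replicate number as a block, and each library left out. Single passages and single replicate numbers were added after seeing the data. Computations used scipy 1.17.1, pandas 2.3.3 and numpy 2.4.6 under Python 3.11.15.

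All 40 named symbols are covered in the text. From each other list, the genes past 1.5-fold are named, and otherwise the 3 with the largest difference between technical replicate numbers. Marker lists served as checks of cell type. Some markers and 1 promoter window are not reported here. The members and lists were chosen with earlier results of these data known. Atf3, Dnajb1, Col1a1 and Col3a1 were named after their values were seen.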

Additional observations from a re-analysis of the deposited data

Results flagged for a closer look

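In 2 of the 39 genes, 1 library stood apart, by most of the range of the 4. A rate of 1 in 20 would pick out 1.95 of 39. That rate takes the libraries as exchangeable, while here they fell into pairs by technical replicate number, so it is no guide to chance. The gap over the range was 0.836 for Dnajc3, whose libraries lay only between 43.8 and 44.7 RPKM, and 0.852 for Hspa8, whose lowest library rested on 45 reads.

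For 4 genes the second technical replicate lay on opposite sides of the first in the 2 passages, a difference that was not tested. The log2 differences at passage 9 and passage 39 were 0.046 and -0.029 for Creld2, 0.016 and -0.015 for Eif2ak3, -0.0093 and 0.050 for Sesn2, and 0.035 and -0.24 for Hspa8.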

How the results depend on the processing

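The median log2 difference of second minus first technical replicates was 0.25 over the members. It was 0.098 after rescaling to a common sum (39 members), 0.16 after median-ratio scaling and 0.11 relative to genes of similar length. With the last, the count of members past 1.5-fold went from 4 to 2. Under either scaling it was 3, since Edem2 fell short, as it also did without the second library of passage 39. Without each library in turn this median ranged from 0.24 to 0.25 and the count from 3 to 4. Between passages, the median over the members ranged from -0.13 to 0.12 and the count past 1.5-fold from 0 to 1 without each library in turn. The 1 gene was Trib3, whose log2 difference of -0.18 became -0.74 without the first and 0.73 without the second library of passage 9, and -1.19 without the second library of passage 39. Without the first library of passage 39 it was 0.40, short of 1.5-fold. Each such omission leaves one passage with a single technical replicate number. With the replicate number as a block, the passage median was 0.00037 and 0 members were past 1.5-fold, and the block changed no call. No label says what a shared number stands for. The paper's methods state that 2 technical replicates per line were pooled for sequencing over 2 lanes. They do not tie a replicate number to a lane. The counts of detected members ranged from 37 to 39 over the scalings and minimums tried. The 38 members had at least 145 reads in each library. Each passage is a single population. Counting intervals of its labelled technical replicates did not overlap for 30 and 31 of 38 members, against 61.4% and 59.9% of all genes. The comparison of passages therefore rests on the labels as given.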
